A study of Homo sapiens with 4 samples.

Results

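Replication-dependent histone genes encode the H1, H2A, H2B, H3 and H4 proteins that package newly made DNA. They were taken as every gene whose current symbol belongs to the numbered H1, H2A, H2B, H3 or H4 gene series (H1-1 to H1-6, H2AC, H2BC, H3C and H4C), matched by Ensembl identifier with the version removed. This gave 67 of the 60719 genes listed: 6 H1, 15 H2A, 18 H2B, 13 H3 and 15 H4 genes. H2AC18 and H2AC19 were not matched by identifier and are not analysed here. No values entered this rule, but it was set with earlier results of these data known.

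The RNA came from a human neuroblastoma cell line, SK-N-AS, which is established and is written SKNAS in the labels. The cells carried a transfected V5-tagged KIF5A construct, either wild type (V5-WT) or the mutant labelled V5-d27, and KIF5A is a subunit of kinesin-1, which moves along microtubules. Both groups were transfected with a lipid reagent and used a day later. RNA bound to anti-V5 magnetic beads was depleted of ribosomal RNA and made into strand-marking libraries without a poly(A) step in the protocol given. There were 2 precipitates per construct (WT replicates 1 and 2, d27 replicates 1 and 2), and the labels do not say that they came from separate cultures. The p-values therefore cover variation among these precipitates only, and that variation may be technical. No input or mock precipitate is used here, so a lower value in d27 is a lower share of the precipitated RNA and not a measure of binding. Fewer cells of a type and less RNA per cell cannot be told apart in such bulk samples.

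Most replication-dependent histone mRNAs are made in S phase, when DNA is copied, and are removed when copying ends. Their mRNAs usually end in a conserved stem-loop in place of a poly(A) tail. The stem-loop is bound by SLBP, which acts in 3′ end cutting, transport and translation of the mRNA. The genes lie in clusters, and many copies of a class encode the same or nearly the same protein. H2A, H2B, H3 and H4 form the core of the nucleosome, whereas H1 binds the linker DNA between nucleosomes.

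The stem-loops of the most abundant and the most clearly changed genes are shown because this 3′ end sets histone mRNAs apart from most other mRNAs. They were read from the GENCODE 29 transcripts, 5′ to 3′, as DNA letters, with the 16 bases of the stem-loop in capitals and 5 bases on each side in lower case.
H2AC8: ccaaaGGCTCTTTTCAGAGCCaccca
H2AC13: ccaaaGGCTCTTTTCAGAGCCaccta
H2AC25: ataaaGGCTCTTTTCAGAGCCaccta
H2BC9: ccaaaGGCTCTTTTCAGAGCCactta
H2BC13: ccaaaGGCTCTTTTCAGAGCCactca
H2BC18: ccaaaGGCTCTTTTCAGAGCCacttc
H4C5: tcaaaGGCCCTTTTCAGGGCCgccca

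A stem-loop was found in the transcripts of 28 of the 65 members with a GENCODE 29 entry, in 5 distinct forms. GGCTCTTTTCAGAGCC was held by 4 H2A, 8 H2B and 3 H3 genes. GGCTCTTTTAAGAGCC was held by H2BC4, H2BC5, H2BC7 and H3C8, and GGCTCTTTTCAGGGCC by H2AC11. The H4 genes used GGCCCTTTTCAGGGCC (5 genes) or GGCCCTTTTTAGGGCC (3 genes). The search asked for 16 bases with GG at the start, CC at the end, TT opening the loop and a paired stem. Many annotated histone transcripts stop at the coding sequence. A missing stem-loop therefore describes the annotation and the search only. No H1 transcript in the annotation held a match. Several annotated transcripts ran far past the stem-loop, with 1640 bases after it in H2BC9 and 51 in H2AC8.

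Histone genes were lower in the d27 precipitates. Counts over all 67 members came to 32408 in WT replicate 1, 22412 in WT replicate 2, 25848 in d27 replicate 1 and 15834 in d27 replicate 2. As a share of all gene counts these were 0.398% and 0.207% in WT, and 0.141% and 0.151% in d27. Both d27 libraries were below both WT libraries, and WT replicate 1 stood well above WT replicate 2. In CPM, counts brought to a common library size and here scaled by TMM, a normalization that balances library composition, the summed level was 3677 and 2322 in WT and 1402 and 1468 in d27. The ratio of the group means, with means taken on the log2 scale, was 0.491, a log2 ratio of -1.03.

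Of the 67 members, 55 passed the filter on low counts and were tested. edgeR's quasi-likelihood test with Benjamini-Hochberg adjustment over 14909 genes (threshold 0.05) called 22 members lower in d27 and 0 higher, and 33 did not pass. Over all genes tested, 3.70% were called lower and 8.00% higher, against 40% of the tested members called lower. At an unadjusted p under 0.05, 44 members were lower and 0 higher, against 13.6% of all genes lower. DESeq2 called 34 members lower and 0 higher, against 8.26% of all genes lower. The log2 fold change was below 0 in 53 of 55 members, with a median of -1.21 and a range from -2.16 to 0.13, beside a median of 0.00 over all genes tested. In 45 members both d27 values lay below both WT values, in 10 the groups overlapped, and in 0 d27 lay above. Over all genes the shares were 29.8% below and 31.4% above.

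**Figure D1:**
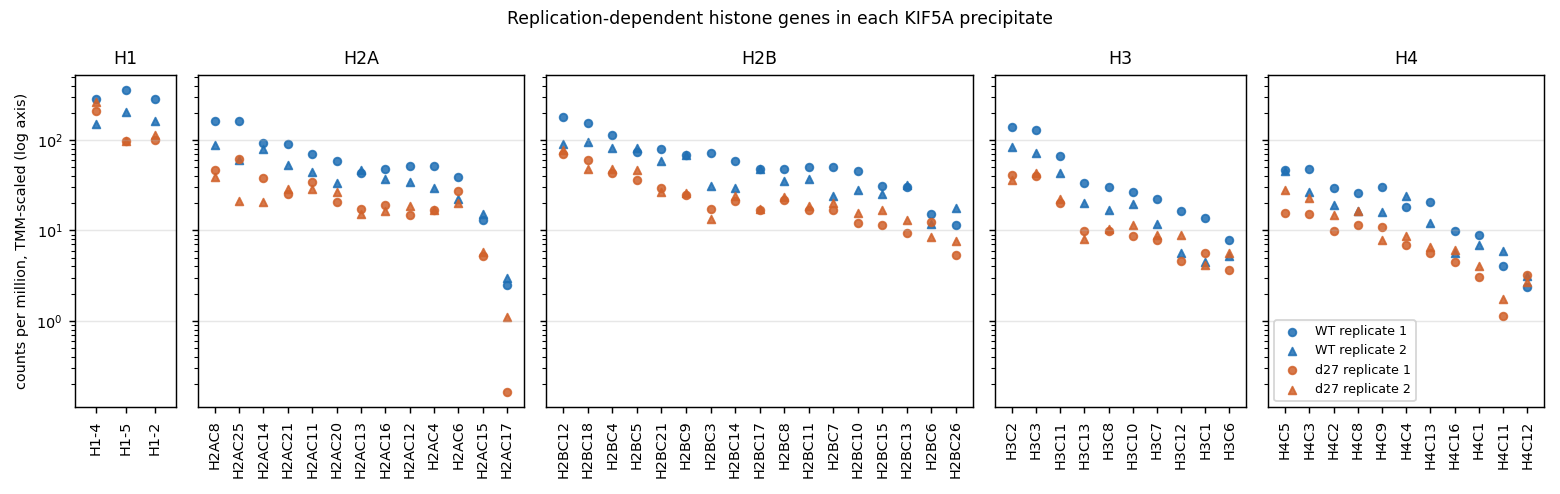
Level of each tested histone gene in each library, in CPM scaled by TMM on a log axis, by class and ordered by mean level. Circles are replicate 1 and triangles replicate 2, WT in blue and d27 in orange, and H3C14 is left out because WT replicate 2 had 0 counts. The d27 symbols lie below the WT symbols in most genes, and H1-4 is an exception among the abundant ones.

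The number of calls and the size of the change depended on single libraries. The median log2 fold change of the tested members was -0.86 without WT replicate 1, beside 0.08 over all genes. Without WT replicate 2 it was -1.40, beside 0.04 over all genes. Without d27 replicate 1 it was -1.17, beside -0.05, and without d27 replicate 2 -1.23, beside -0.07. Scaling by library totals alone left 8 calls, all among the 22. H1-5, H2BC9 and H3C2 were called lower under every alternative that was run, although H3C2 has no annotated GC content or length for the correction on those properties.

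H1 genes encode linker histones, and H1-2, H1-4 and H1-5 had the most counts of all members. H1-1 was at 0 in all libraries, H1-3 had 2 counts in d27 replicate 1 and none elsewhere, and H1-6, a testis variant, had 1 to 13 counts per library. The remaining H1 genes were H1-2, H1-4 and H1-5, each a single-exon gene on chromosome 6 (GRCh38). H1-2 lies at 26055787-26056428, H1-4 at 26156354-26157107 and H1-5 at 27866849-27867529.

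H1-5 had 360 and 203 CPM in WT and 96.7 and 98.4 CPM in d27. Both d27 values were below both WT values, and the log2 fold change was -1.53 ± 0.31 (SE, n = 2 per group, edgeR adjusted p = 0.025). H1-2 had 283 and 162 CPM in WT and 98.9 and 113 CPM in d27, again without overlap. Its log2 fold change of -1.07 ± 0.31 did not pass (edgeR adjusted p = 0.060), but did with DESeq2, with no filter, with at least 50 counts and without WT replicate 2 or d27 replicate 2. H1-4 had 282 and 151 CPM in WT and 211 and 265 CPM in d27. The H1-4 groups overlapped, and the log2 fold change was 0.13 ± 0.33 (edgeR adjusted p = 0.817). Leaving out 1 library at a time moved the H1-4 value between -0.22 (without WT replicate 2) and 0.69 (without WT replicate 1), so its direction depended on the library.

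The make-up of the H1 counts separated the groups more cleanly than the levels did. H1-4 gave 30.5% and 29.3% of H1 counts in WT and 51.9% and 55.6% in d27. Exact (Clopper-Pearson) 95% intervals ran from 28.0% to 31.5% over the WT libraries and from 50.7% to 57.0% over the d27 libraries. These intervals cover counting error only. H1-5 went the other way, with 38.9% and 39.1% in WT and 23.8% and 20.7% in d27. H1-2 gave 30.5% and 31.3% in WT and 24.3% and 23.7% in d27.

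These shares do not depend on how libraries are scaled. The count ratio of H1-4 to H1-5 was 0.783 and 0.747 in WT and 2.18 and 2.69 in d27. The ratio of H1-4 to H1-2 was 0.998 and 0.934 in WT and 2.13 and 2.35 in d27. The ratio of H1-2 to H1-5 moved less, from 0.785 and 0.801 to 1.02 and 1.15. The WT replicates thus had nearly the same H1 make-up although their H1 levels differed, with H1 sums of 925 and 518 CPM. An exact permutation test of 2 against 2 libraries cannot give a two-sided p below 0.333, and no other test of the ratios was run.

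**Figure D2:**
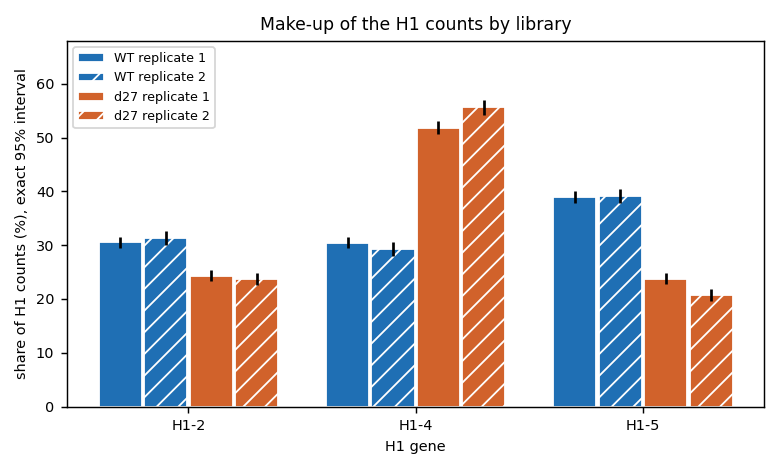
Share of all H1 counts held by H1-2, H1-4 and H1-5 in each library, in percent, with exact 95% intervals for counting error as black lines. H1-4 holds 29.3% to 30.5% in the WT libraries and 51.9% to 55.6% in the d27 libraries, while H1-5 and H1-2 hold less in d27.

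The promoters of these H1 genes are shown because the genes differ in the precipitates and share control elements. Each is the 250 bases before the RefSeq start (GRCh38.p14), 5′ to 3′ on the gene's strand, with matches to the H1 box AAACACA, to CCAAT and to TATAAA on either strand in capitals.
H1-2 (chr6:26056471-26056720, minus strand): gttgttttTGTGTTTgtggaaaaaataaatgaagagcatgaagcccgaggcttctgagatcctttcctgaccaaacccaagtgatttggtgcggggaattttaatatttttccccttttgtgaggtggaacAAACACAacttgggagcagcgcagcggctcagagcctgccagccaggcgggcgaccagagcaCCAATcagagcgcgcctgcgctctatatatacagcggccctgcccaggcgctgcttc
H1-4 (chr6:26156079-26156328, plus strand): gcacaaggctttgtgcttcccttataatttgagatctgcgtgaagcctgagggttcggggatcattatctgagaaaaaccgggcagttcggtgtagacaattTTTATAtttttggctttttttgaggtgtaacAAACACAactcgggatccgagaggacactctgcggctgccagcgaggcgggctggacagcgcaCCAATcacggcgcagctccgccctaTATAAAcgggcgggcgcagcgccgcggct
H1-5 (chr6:27867589-27867838, minus strand): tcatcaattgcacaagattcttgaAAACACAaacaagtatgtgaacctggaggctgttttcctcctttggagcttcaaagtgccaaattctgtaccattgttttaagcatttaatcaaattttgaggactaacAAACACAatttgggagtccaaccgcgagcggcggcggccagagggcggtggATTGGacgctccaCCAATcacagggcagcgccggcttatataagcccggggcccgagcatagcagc

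The nearest H1 box began 119, 117 and 117 bases before the start in H1-2, H1-4 and H1-5, and the nearest CCAAT 57, 54 and 53 bases before it. TATAAA matches began 29 and 148 bases before the start in H1-4, and the windows of H1-2 and H1-5 held no exact match. Those windows do hold the similar letters tatatata (H1-2) and tatataa (H1-5), which a search for exact TATAAA does not count. The search therefore does not set H1-4 apart as the only one with a TATA-like stretch. Among the 62 members with a promoter in the table, AAACACA stood in 6 of 6 H1 promoters and in 0 of the others, against 4.95% of all 27305 promoters. CCAAT stood in 52 of 62 member promoters, with 3 of 13 among the H4 genes, against 33.0% of all. The octamer ATTTGCAT stood in 14 of 18 H2B, 11 of 14 H2A and 1 of 11 H3 promoters and in 0 H1 or H4 promoters, against 1.66% of all. TATAAA stood in 40 of 62, against 11.1% of all. A match is a description of the letters and not evidence of binding.

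H2A proteins pair with H2B in the nucleosome core. Of the 15 H2A members, 13 were tested, 7 were called lower and 6 did not pass, and 11 had d27 values below both WT values. Their median log2 fold change was -1.37. The summed H2A level was 884 and 545 CPM in WT and 327 and 260 CPM in d27, with no overlap.

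H2AC8 had 161 and 87.5 CPM in WT and 46.5 and 39.5 CPM in d27. Its groups were apart, and it fell by 1.53 ± 0.33 on the log2 scale (edgeR adjusted p = 0.028). H2AC13 had 43.7 and 46.5 CPM in WT and 17.5 and 15.3 CPM in d27, with WT replicates close together and a log2 fold change of -1.46 ± 0.27 (edgeR adjusted p = 0.019). H2AC14 had 91.9 and 79.4 CPM in WT and 38.0 and 20.4 CPM in d27, with a log2 fold change of -1.55 ± 0.33 (edgeR adjusted p = 0.029). All of these calls were lost when GC content and exon length were corrected for, and that of H2AC14 also without d27 replicate 2. H2AC12, H2AC15, H2AC16 and H2AC21 were also called lower, with log2 fold changes between -1.40 and -1.26. All of these lost their calls under library totals, with the GC and length correction and without d27 replicate 1, H2AC15 and H2AC16 also without d27 replicate 2, and H2AC15 also without WT replicate 2.

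Other H2A genes moved less clearly. H2AC25, from the smaller cluster on chromosome 1, had 162 and 59.9 CPM in WT and 61.0 and 21.4 CPM in d27. In both groups replicate 1 was far above replicate 2, the groups overlapped, and the log2 fold change of -1.42 ± 0.58 did not pass (edgeR adjusted p = 0.148). H2AC25 did pass with DESeq2, with no filter and without d27 replicate 1. H2AC6 had 39.3 and 22.4 CPM in WT and 27.5 and 19.9 CPM in d27, which overlap, with a log2 fold change of -0.37 ± 0.35 (edgeR adjusted p = 0.511). H2AC17 had few counts, with 2.50 and 3.00 CPM in WT and 0.163 and 1.11 CPM in d27, and its log2 fold change of -2.16 ± 1.05 did not pass (edgeR adjusted p = 0.206). It overlaps H3C12 on the same strand and shares 86.3% of its 50-base words with other genes, so its low count does not show a low level.

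H2B genes had the largest summed level of the 5 classes in WT, at 1132 and 793 CPM, and 425 and 451 CPM in d27. Of 18 members, 17 were tested, 9 were called lower and 8 did not pass, and their median log2 fold change was -1.16. In 16 of the 17 both d27 values lay below both WT values.

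H2BC9 had 69.0 and 68.4 CPM in WT and 24.5 and 25.7 CPM in d27. The replicates of each group were nearly equal and the groups far apart, and the log2 fold change was -1.45 ± 0.25 (edgeR adjusted p = 0.015). H2BC17 had 48.3 and 48.4 CPM in WT and 16.8 and 17.2 CPM in d27, a similarly tight pattern, with a log2 fold change of -1.51 ± 0.26 (edgeR adjusted p = 0.016). Its call was lost without d27 replicate 1 and with the GC and length correction. H2BC13 had 29.9 and 31.6 CPM in WT and 9.28 and 13.0 CPM in d27, with a log2 fold change of -1.47 ± 0.31 (edgeR adjusted p = 0.026), and lost its call only without d27 replicate 1.

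H2BC3 had 72.3 and 31.1 CPM in WT and 17.1 and 13.4 CPM in d27. It had the lowest log2 fold change of the class, -1.75 ± 0.42 (edgeR adjusted p = 0.036), with WT replicates well apart, and lost its call under library totals and with the GC and length correction. H2BC12 was the most abundant H2B gene, with 182 and 89.3 CPM in WT and 70.5 and 77.6 CPM in d27. Its groups did not overlap, but WT replicate 2 came close to the d27 values and the log2 fold change of -0.87 ± 0.34 did not pass (edgeR adjusted p = 0.131), though it did without WT replicate 2. H2BC18 had 153 and 95.01 CPM in WT and 60.6 and 47.9 CPM in d27 and was called lower, with a log2 fold change of -1.19 ± 0.30 (edgeR adjusted p = 0.042). That call was lost under library totals and without WT replicate 1 or d27 replicate 2. H2BC6 had 15.1 and 11.8 CPM in WT and 12.4 and 8.53 CPM in d27 and was the only H2B gene whose groups overlapped (log2 fold change -0.35 ± 0.36, edgeR adjusted p = 0.542). H2BC4, H2BC10, H2BC11 and H2BC21 were also called lower, with log2 fold changes from -1.40 to -1.09. All of these lost their calls under library totals and without d27 replicate 1, H2BC4 also without WT replicate 1, H2BC10 also with the GC and length correction, and H2BC21 also without d27 replicate 2.

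H2A and H2B genes often stand head to head and share the DNA between them. Among the members, 11 such H2A-H2B pairs with starts less than 1000 bases apart were found, and 1 H2B-H3 pair. Both genes were tested in 10 of the 12 pairs. Both were called lower in 1 pair, H2AC13 and H2BC13, which had almost the same log2 fold change (-1.46 and -1.47) across 267 bases. In 8 pairs exactly 1 gene was called lower. H2BC4 and H2AC6, 218 bases apart, had log2 fold changes of -1.09 and -0.37, and H2BC12 and H2AC12, 330 bases apart, had -0.87 and -1.35. The difference within pairs was not tested.

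H3 genes encode the replication-coupled H3.1 and H3.2 proteins. Of 13 members, 11 were tested, 4 were called lower and 7 did not pass, with a median log2 fold change of -1.21. In 7 of them the d27 values lay below both WT values and in 4 the groups overlapped. The summed H3 level was 490 and 284 CPM in WT and 154 and 161 CPM in d27.

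H3C2 had 139 and 84.8 CPM in WT and 41.3 and 36.4 CPM in d27. The groups were apart, and the log2 fold change was -1.52 ± 0.30 (edgeR adjusted p = 0.022). H3C3 had 131 and 71.7 CPM in WT and 40.4 and 43.4 CPM in d27, with a log2 fold change of -1.27 ± 0.32 (edgeR adjusted p = 0.042). H3C11 had 66.3 and 43.6 CPM in WT and 19.9 and 22.2 CPM in d27, with a log2 fold change of -1.38 ± 0.30 (edgeR adjusted p = 0.030). H3C3 and H3C11 both lost their calls under library totals and without d27 replicate 1, H3C3 also without WT replicate 1, and H3C11 also with the GC and length correction. H3C13 had 33.5 and 20.3 CPM in WT and 9.82 and 8.06 CPM in d27, with a log2 fold change of -1.58 ± 0.35 (edgeR adjusted p = 0.031), but 80.4% of its 50-base words are shared with other genes. Its call was lost under library totals, with the GC and length correction and without either d27 library. H3C14 was listed at 0 in WT replicate 2 and at 2.16 CPM in WT replicate 1, against 1.41 and 0.556 CPM in d27, so its log2 fold change of -0.09 ± 1.47 rests on few counts (edgeR adjusted p = 0.974).

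H4 genes had the smallest sums, 245 and 181 CPM in WT and 88.9 and 120 CPM in d27. Of 15 members, 11 were tested and 1, H4C4, was called lower, although 9 had d27 values below both WT values. The median log2 fold change was -1.09, and 8 of the 11 had an unadjusted p under 0.05.

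H4C4 had 18.2 and 23.9 CPM in WT and 6.94 and 8.71 CPM in d27, with a log2 fold change of -1.43 ± 0.33 (edgeR adjusted p = 0.035). That call was lost under library totals, with the GC and length correction, and without WT replicate 2, d27 replicate 1 or d27 replicate 2. H4C5 had 46.7 and 45.6 CPM in WT and 15.7 and 27.9 CPM in d27, without overlap, and a log2 fold change of -1.09 ± 0.33 that did not pass (edgeR adjusted p = 0.071). It passed with DESeq2, with the GC and length correction, with no filter, with at least 50 counts and without WT replicate 1 or d27 replicate 2. H4C3 had 47.5 and 26.4 CPM in WT and 15.3 and 22.9 CPM in d27, and its log2 fold change of -0.96 ± 0.37 did not pass either (edgeR adjusted p = 0.127), though it did without WT replicate 2. H4C11 had 4.08 and 5.91 CPM in WT and 1.14 and 1.76 CPM in d27 (log2 fold change -1.79 ± 0.63, edgeR adjusted p = 0.100) and passed without WT replicate 1. H4C12 had 2.38 and 3.11 CPM in WT and 3.20 and 2.69 CPM in d27 (log2 fold change 0.10 ± 0.61, edgeR adjusted p = 0.929). Every 50-base word of H4C12 also occurs in another gene, so counts of H4C11 and H4C12 are uncertain.

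**Figure D3:**
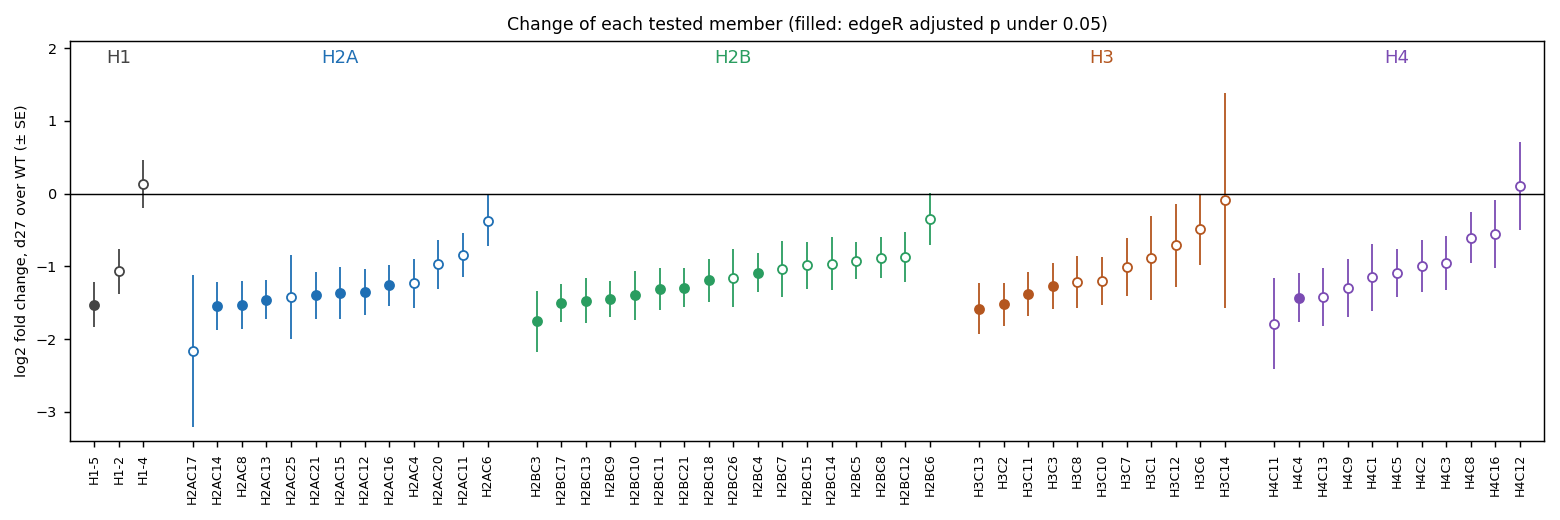
Log2 fold change of d27 over WT for each tested histone gene, by class, with its standard error as a vertical line. Filled symbols mark the 22 genes with an edgeR adjusted p under 0.05, and the 33 open symbols did not pass. Symbols above 0 are H1-4 and H4C12 only.

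Set side by side, the log2 ratios of the class sums were -0.65 for H1, -1.25 for H2A, -1.11 for H2B, -1.25 for H3 and -1.03 for H4. None of the differences between classes was tested. Of all histone counts, H1 made up 25.2% and 22.3% in WT and 29.02% and 32.46% in d27, without overlap. The H1 sum and share include H1-4, with a log2 fold change of 0.13, whereas H1-2 and H1-5 had -1.07 and -1.53. The H1 class values therefore do not describe each H1 gene. H3 made up 13.3% and 12.2% in WT and 11.0% in both d27 libraries. H2A made up 24.04% and 23.49% in WT and 23.3% and 17.7% in d27, H2B 30.8% and 34.2% in WT and 30.3% and 30.7% in d27, and H4 6.68% and 7.80% in WT and 6.34% and 8.15% in d27. The H4 shares overlapped between the groups, and the nearest H2A and H2B shares of the groups almost met.

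**Figure D4:**
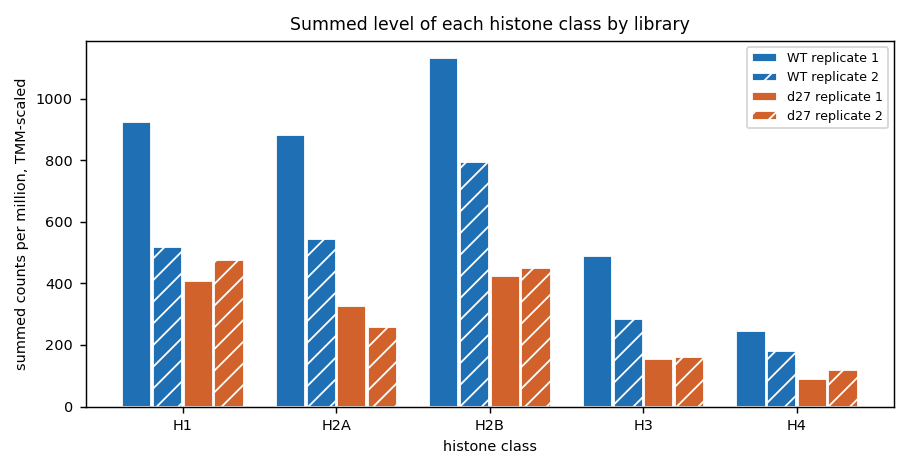
Summed level of all members of each histone class in each library, in CPM scaled by TMM, with WT in blue, d27 in orange and replicate 2 hatched. In every class both d27 bars are lower than both WT bars, and WT replicate 1 is the tallest.

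The excess of WT replicate 1 over WT replicate 2 was shared by most members. It was higher in 45 of 55 tested members, with a median ratio of 1.56, against 50.7% of all genes tested. Between the d27 libraries, replicate 1 was higher in 18 of 55 members, with a median ratio of 0.895. Without WT replicate 1 the median log2 fold changes came to -0.98 for H2A, -0.71 for H3 and -0.72 for H4, still below 0.

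By location, the members fell into 2 blocks on chromosome 6, 2 clusters on chromosome 1 and 1 gene, H4C16, on chromosome 12. In the block at 25726132-26285638 of chromosome 6, 25 genes were tested, 8 were called lower and the median log2 fold change was -1.07. In the block at 27125897-27893843, 21 were tested and 10 called lower, with a median of -1.35. In the chromosome 1 cluster at 149782689-149887916, 6 were tested and 4 called lower, with a median of -1.24. In the chromosome 1 pair at 228456979-228460470 (H2AC25 and H2BC26) 0 were called, with a median of -1.29 and both at an unadjusted p under 0.05, and neither was H4C16 called, at -0.56. Lower calls thus came from 3 of the 5 places and were not confined to one cluster.

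Near-identical copies limit what the counts of some genes mean, because HTSeq gives no count to a read with several alignments. Each member was cut into words of 50 bases, and the share found in another gene was counted. Of 65 members, 27 shared no word, 13 shared 50% or more and 7 shared 97% or more. The 3 abundant H1 genes, H2AC8, H2BC9 and H4C4 shared 0%, whereas H2BC12 shared 74.1%, H2AC14 83.7% and H2AC13 62.3%. Among tested members under 10% shared, 14 of 40 were called lower with a median log2 fold change of -1.16. Among those with 10% or more, 6 of 13 were called, with a median of -1.46. The lower level in d27 was thus also seen among members with under 10% of their words found in another gene. Words were compared between genes only, and some of these members, such as H2AC15 and H2AC16, overlap another gene. Whether their reads were placed uniquely was not tested.

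**Figure D5:**
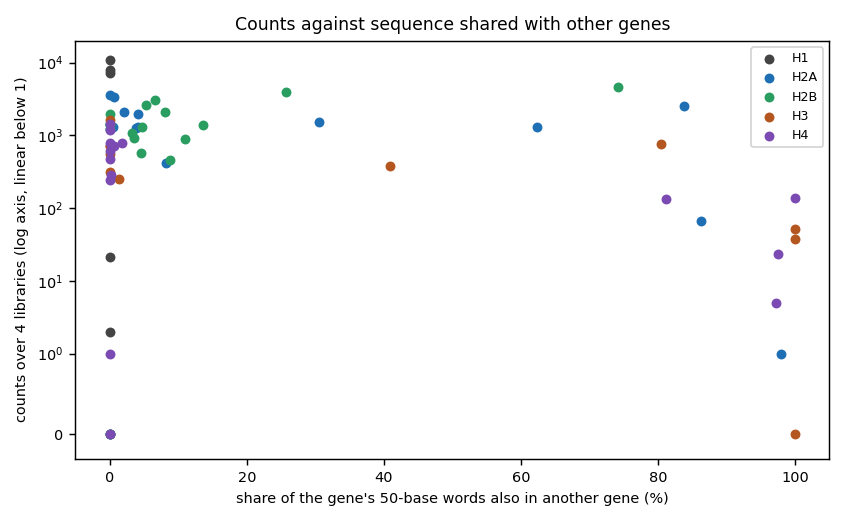
Counts of each member over all 4 libraries (vertical axis, log scale, linear below 1) against the share of its 50-base words that also occur in another gene (horizontal axis, percent), coloured by class. Members with 97% or more shared words have few counts, while those with no shared word include both members at 0 and the most counted ones.

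The 12 members that were not tested were H1-1, H1-3, H1-6, H2AC1, H2AC7, H2BC1, H3C4, H3C15, H4C6, H4C7, H4C14 and H4C15. H1-1, H2AC1, H2BC1, H3C4 and H4C7 were at 0 in every library, which allows up to 0.340 CPM in WT replicate 1, 0.311 in WT replicate 2, 0.163 in d27 replicate 1 and 0.278 in d27 replicate 2. H2AC7 and H3C4 share 98.0% and 100% of their words with other genes and lie inside another annotated gene on the same strand, so their reads would count as ambiguous. H3C15, H4C14 and H4C15 also share at least 97% of their words. For these genes a low count does not show a low level.

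Levels of different genes were compared per kilobase of annotated exon, within each construct. In WT, H1-5 had the highest mean of the members with an annotated length, 413 ± 164 CPM per kb (SD, n = 2), followed by H2BC12 with 355 ± 171, H1-2 with 346 ± 133, H1-4 with 288 ± 123 and H2AC8 with 244 ± 103. These means differ by less than or about the spread between the WT replicates. That spread includes the shift of most members between WT replicates 1 and 2, so it does not show how steady the order was within a library. Within the WT libraries the count ratio of H1-4 to H1-5 was 0.783 and 0.747. In d27, H1-4 came first with 316 ± 50.6 CPM per kb, followed by H2BC12 with 194 ± 13.1, H1-2 with 165 ± 15.2, H1-5 with 143 ± 1.82 and H2AC8 with 84.5 ± 9.74. The gap between H1-4 and the next gene in d27 was larger than either SD. Annotated exon length was 312 bases in H4C4, the coding sequence alone, and 2060 bases in H2BC9, so the order depends on the annotation.

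Genes whose products make and handle histone mRNAs are given next, to be read against the 3.70% of all genes called lower and 8.00% called higher. Of 10 genes of histone transcription, 0 were called lower and 1 higher, with a median log2 fold change of 0.28. NPAT, the coactivator of histone genes at histone locus bodies, had 13.0 and 13.3 CPM in WT and 10.3 and 6.58 CPM in d27 (log2 fold change -0.63 ± 0.37, edgeR adjusted p = 0.284). GON4L was the most abundant of them, with 267 and 494 CPM in WT and 260 and 251 CPM in d27 (edgeR adjusted p = 0.265), and passed as lower without WT replicate 1. CCNE1, the cyclin E that acts at the start of S phase, rose by 1.23 ± 0.31 on the log2 scale (edgeR adjusted p = 0.042), from 14.5 and 10.9 CPM to 26.6 and 32.9 CPM. That call was lost under library totals and without WT replicate 2, d27 replicate 1 or d27 replicate 2.

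Among 11 tested genes of 3′ end processing, 0 were called lower and 1 higher, with a median of 0.00. SLBP, the stem-loop binding protein, had 50.8 and 45.7 CPM in WT and 79.5 and 72.8 CPM in d27, above WT in both libraries. Its log2 fold change of 0.66 ± 0.24 did not pass (edgeR adjusted p = 0.108), but did with replicate number as a block. NCBP2, a subunit of the cap-binding complex, rose by 1.61 ± 0.25 (log2, edgeR adjusted p = 0.012), from 49.9 and 39.4 CPM to 141 and 131 CPM. SRRT, which links the cap-binding complex to RNA processing, had 336 and 506 CPM in WT and 245 and 299 CPM in d27 (edgeR adjusted p = 0.181), and passed as lower without WT replicate 1. Among 9 genes of histone mRNA use and decay, LSM1, part of a complex that binds RNA 3′ ends during decay, rose by 1.499 ± 0.257 (log2, edgeR adjusted p = 0.016), from 20.6 and 19.4 CPM to 55.1 and 58.1 CPM. The other 8 did not pass, with UPF1 the most abundant at 190 and 244 CPM in WT and 180 and 155 CPM in d27 (edgeR adjusted p = 0.345).

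Of 15 histone chaperone genes, 3 were called lower and 0 higher, with a median log2 fold change of -0.28. NASP, which holds H3-H4 and linker histones, had 219 and 253 CPM in WT and 112 and 101 CPM in d27 (-1.15 ± 0.23, edgeR adjusted p = 0.025). TONSL, which binds new histones at replication forks, had 110 and 156 CPM in WT and 42.5 and 51.5 CPM in d27 (-1.504 ± 0.271, edgeR adjusted p = 0.018). SUPT16H, a subunit of the FACT chaperone, had 614 and 941 CPM in WT and 360 and 330 CPM in d27 (-1.17 ± 0.29, edgeR adjusted p = 0.042). The NASP and SUPT16H calls were each lost when WT replicate 2, d27 replicate 1 or d27 replicate 2 was left out. SSRP1, the partner of SUPT16H in FACT, had 648 and 850 CPM in WT and 563 and 614 CPM in d27 and did not pass (edgeR adjusted p = 0.418).

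Replacement variants are histones made outside S phase from ordinary polyadenylated mRNAs. Of 12 such genes, 1 was called lower and 2 higher, with a median log2 fold change of -0.13. H1-10, a linker histone, had 70.4 and 66.4 CPM in WT and 115 and 148 CPM in d27 (0.94 ± 0.24, edgeR adjusted p = 0.045), a call lost under library totals and in 3 of the 4 runs without 1 library. H2AJ, an H2A variant, had 28.8 and 17.8 CPM in WT and 7.70 and 7.60 CPM in d27 (-1.61 ± 0.35, edgeR adjusted p = 0.030), a call lost under library totals and without d27 replicate 1. H3-3B, which encodes H3.3, had 490 and 482 CPM in WT and 751 and 679 CPM in d27 and did not pass (0.56 ± 0.25, edgeR adjusted p = 0.176).

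Measures that moved with the histone genes are given here, and their part in the result was not tested. Summed levels of 25 S-phase genes were 2501 and 2962 CPM in WT and 1730 and 1829 CPM in d27. Of these genes 4 were called lower and 1 higher, with a median log2 fold change of -0.39. CDC45, part of the replicative helicase, had 39.3 and 42.4 CPM in WT and 17.41 and 15.01 CPM in d27 (-1.33 ± 0.27, edgeR adjusted p = 0.025), and MCM3, another helicase subunit, had 277 and 397 CPM in WT and 139 and 143 CPM in d27 (-1.26 ± 0.26, edgeR adjusted p = 0.027). POLE, the catalytic subunit of DNA polymerase epsilon, fell by 1.57 ± 0.35 (edgeR adjusted p = 0.031), and MCM2, named after its values were seen, fell by 1.56 ± 0.34 (edgeR adjusted p = 0.030), both on the log2 scale. UNG, a uracil glycosylase, rose from 28.4 and 18.9 CPM to 68.4 and 90.4 CPM (1.75 ± 0.31, edgeR adjusted p = 0.017). All 4 lower calls were lost without d27 replicate 1. The S-phase sum was higher in WT replicate 2 than in WT replicate 1, the reverse of the histone sum. Single S-phase genes went both ways between WT replicates 1 and 2, with POLE at 324 and 593 CPM and MCM6 at 88.1 and 57.0 CPM.

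RNAs without a regular poly(A) tail summed to 11037 and 15484 CPM in WT and 5367 and 5313 CPM in d27. Of 12 listed, 7 were at 0 in every library (RN7SK, RN7SL2, RMRP, RPPH1, TERC, RNU11 and RNU12). Reads with several alignments are not counted, so 0 does not show that these RNAs were absent. Sequence shared with other genes was not measured for any of the 12. Of the 5 tested, RN7SL1, the RNA of the signal recognition particle, was called lower, with 2552 and 4102 CPM in WT and 862 and 1227 CPM in d27 (-1.67 ± 0.36, edgeR adjusted p = 0.029), a call lost without d27 replicate 1 and with the GC and length correction. MALAT1, a nuclear noncoding RNA, had 6117 and 8181 CPM in WT and 3562 and 2659 CPM in d27, without overlap, and did not pass (-1.20 ± 0.34, edgeR adjusted p = 0.060), but did with DESeq2, with the GC and length correction, with no filter, with at least 50 counts and without WT replicate 1.

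Libraries held from 8142869 (WT replicate 1) to 18335151 (d27 replicate 1) gene counts. HTSeq set aside 23.7% and 22.8% of all entries as aligned to several places in WT, and 9.10% and 17.1% in d27, which differs between the groups in a class of reads that holds part of the histone reads. KIF5A, the transfected gene, was high in all 4 libraries. It had 83401 CPM in WT replicate 1 and 165628 CPM in WT replicate 2, against 107913 and 108931 CPM in d27. Of the cell type markers, adrenergic neuroblastoma genes summed to 988 to 1310 CPM and mesenchymal ones to 3655 to 4963 CPM, with HAND2, GATA2 and VIM at over 250 CPM in every library. TH and DBH, enzymes of catecholamine synthesis, were at or below 1.47 CPM. EPCAM was at 0, CD68 and VWF did not exceed 0.542 CPM, and PTPRC, a blood cell marker, had 189 and 162 CPM in WT and 100 and 79.5 CPM in d27 (edgeR adjusted p = 0.043), a call lost under library totals and when any 1 library was left out. All 6 blood, endothelial and epithelial markers together summed to 194 to 233 CPM in WT and 106 to 133 CPM in d27.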

How the data were processed

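Raw read counts per gene were used as deposited, with 1 table per library. Per the submitters' processing notes, the authors used HTSeq and DESeq2 on GRCh38. The aligner, annotation release, strand setting and tool versions were not given in the sources used here. Without the strand setting, genes overlapping in antisense cannot be separated with certainty. Overlapping exons affect H2AC15 and H2AC16 (with H2BC15), H2AC21 (with BOLA1), H2BC18 (with FCGR1A), H2AC17 (with H3C12), H2AC7, H3C4 and H2BC6 (with unnamed genes), and H3C14 and H3C15 (with H4C14 and H4C15). HTSeq's summary entries, 25.9% to 47.6% of all entries, entered neither library sizes nor tests. Members were found by Ensembl identifier, and 65 of the 67 had an entry in GENCODE 29, which gave positions and transcripts.

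The test was edgeR 4.0.16 (R 4.3.3): TMM, filterByExpr by group (minimum count 10, minimum total 15), robust glmQLFit and glmQLFTest on group, with Benjamini-Hochberg adjustment over 14909 genes at 0.05. The SE was taken from the F statistic, as log2 fold change over the root of F. The fit was tested on simulated data. The fit was repeated with a replicate block, a GC and exon length offset, library totals, DESeq2 size factors, DESeq2 1.42.0 itself, no filter, a minimum of 50 counts, and each library left out. Floors count 3 reads and cover counting error only. Promoters came from RefSeq (GRCh38.p14) and stem-loops from GENCODE 29 transcripts.

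Members, lists and tests were chosen with earlier results of these data known. Values are printed for the 2 most abundant, up to 3 called with the lowest p, and the most extreme members of each class, with H1-2 added after its values were seen, and for up to 3 called and the most abundant gene of each related list, with SLBP and NPAT. A gene that this rule would name is not reported here.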

Additional observations from a re-analysis of the deposited data

How the results depend on the processing

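No alternative called a member higher, and no result that passed its test changed direction. The 22 members called lower became 34 with DESeq2, 8 with library totals and 35 with the replicate block, and 9 to 36 when 1 library was left out. The share of all genes called lower moved too, from 3.70% to 8.26%, 1.91% and 9.65% with DESeq2, library totals and the block, and to between 0.431% and 13.1% when 1 library was left out. With the GC and exon length offset the median log2 fold change was -0.82 over the members, -0.77 for H2A, -0.78 for H3 and -0.70 for H4, while the median over all genes was -0.07. That offset called 19 members lower, of which 9 were among the 22, and 6.41% of all genes. It cannot correct H3C2 and H3C3. Leaving out 1 library gave medians from -1.56 to -0.98 for H2A, from -1.50 to -0.71 for H3 and from -1.27 to -0.71 for H4, where the lone library left in a group is assumed to vary like the other group. The cause of these shifts was not tested. DESeq2, its size factors, no filter, at least 50 counts and the replicate block each kept all 22 calls. Replicate numbers are shared by the labels only. Deviations from the group means of same-numbered libraries had r = 0.10 across 14909 genes. With the block, H1-2, H2AC25, H4C5 and MALAT1 passed as lower, and SLBP passed as higher. Too few counts were left to test 12 of the 67 members, and for those that share nearly all their sequence with other genes this cannot be told apart from reads that were not counted.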
